A study of Mus musculus with 16 samples.

Results

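Exon peaks were taken here as the differentially accessible ATAC-seq peaks whose centre lies in an exon of a protein-coding transcript and over 1 kb from every annotated transcription start site. Of the 80367 peaks listed as differing between neuroendocrine (NE) and non-NE small-cell lung cancer (SCLC) cells, 2213 (2.75%) met this rule, which is 3.28% of the 67448 listed peaks away from start sites. By the base at the centre of the peak, 1134 lay in coding sequence, 1033 in a 3' untranslated region (UTR) and 46 in a 5' UTR. The rule used position alone and not the direction of the change.

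The study compared GFPhigh cells, which are non-NE SCLC cells, with GFPneg cells, which are NE SCLC cells, both sorted from TKO;Hes1 GFP/+ mice. In these mice Rb, p53 and p130 were deleted in the lungs by an adenovirus that expresses Cre from the CMV promoter, which is not specific to a cell type, and GFP was read from the endogenous Hes1 locus, so that both groups carried the same 3 deletions and the same reporter allele. The tumors of each mouse were pooled before sorting for cells negative for CD45, CD31 and TER-119 and positive for CD24. By the labels, 4 pairs of populations came from 3 mice, with 2 of the pairs from 1 mouse, and gave 8 libraries that were each run on 2 lanes. A peak in the opened list was more accessible in GFPhigh cells, and a peak in the closed list was less accessible in GFPhigh cells. The files hold 1 row per peak for the whole comparison and no value per library, so the depth of the libraries is unknown, no value has a replicate error, and no test between the groups could be made here. A change in accessibility per cell and a change in the share of cells with an accessible site cannot be told apart in sorted bulk cells. The level given for a peak is the authors' mean over all libraries of the normalized read count. A share of peaks is given with its Wilson 95% interval, which covers counting error only, and neighbouring peaks are not independent of each other.

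ATAC-seq marks accessible DNA because the Tn5 transposase inserts adaptors where nucleosomes leave the DNA free, as at promoters and enhancers. Enhancers are mostly known from introns and intergenic DNA, but transcription factors can also bind within coding sequence, where the same bases must keep the protein's code, and within the last exon, which usually holds the 3' UTR. ATAC-seq reads where such DNA is accessible and not what binds it or what it does. Among the factors with a known role in such cells, TEAD proteins are the DNA-binding partners of YAP and TAZ in the Hippo pathway, AP-1 proteins are stress- and growth-responsive factors, and proneural factors bind E-boxes.

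Sites from exon peaks are shown first to give the context of the motif cores counted in these peaks. They are examples, most exon peaks of either list lacked a given core, and each core also occurred in peaks of the other list. Each line is the reference mm10 sequence, 5' to 3' on the strand given, of 28 bases around a core, and the capitals mark the core. The first sites are TEAD cores (CATTCC) in opened peaks, in coding sequence of Klf4 and Gpr179 and in the 3' UTR of Rassf4 and Notch1.
Klf4, chr4:55530467-55530494, minus: gacccagtataCATTCCgccacagcagc
Gpr179, chr11:97338633-97338660, plus: cccttagaggcCATTCCagcctcctggt
Rassf4, chr6:116635490-116635517, plus: cctgataaggaCATTCCatggcctgtca
Notch1, chr2:26458485-26458512, plus: ggctccacccaCATTCCagcacactcaa

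The next sites are AP-1 cores (TGANTCA) in closed peaks, in coding sequence of Epcam and Syne1 and in the 3' UTR of Scn9a and Ccdc97. The core in Ccdc97 covers the centre of its peak.
Epcam, chr17:87640311-87640338, plus: aaagcagaaaTGACTCAcagcaagtctg
Syne1, chr10:5302276-5302303, plus: ttgtccttccTGAGTCAccacgtccagc
Scn9a, chr2:66482447-66482474, plus: ctttcagatgTGAGTCAtgagctgtctc
Ccdc97, chr7:25711978-25712005, plus: ctgtgtgtgaTGACTCAagacccatgat

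The E-box core CAGCTG is shown in closed peaks of the paralogs Tle1 and Tle4, which code for Groucho-type co-repressors that act with HES proteins, and of Kif5c, a neuronal kinesin. The Tle1 and Tle4 peaks both lay over exon 17 of 20, an exon of 148 bases in each gene, of which 138 bases (93.2%) were identical. Both exons held 2 CAGCTG cores, 91 bases apart. In exons this alike, the cores and their spacing are not independent observations. Of 26 consecutive short runs of bases in the Tle1 peak, 2 also occurred elsewhere on the assembled chromosomes. The Tle4 peak was not searched in this way. Whether reads were shared between the Tle1 and Tle4 peaks was not tested, so these peaks may not be independent. The pair of Tle1 and Tle4 was chosen after its values were seen.
Tle1, first, chr4:72122357-72122384, plus: tcatgctgctgCAGCTGcctcccttctc
Tle4, first, chr19:14452433-14452460, plus: tcatgttgctgCAGCTGccgcccttcac
Tle1, second, chr4:72122448-72122475, plus: aaatgtcaataCAGCTGgctccgtctgt
Tle4, second, chr19:14452524-14452551, plus: aaatgtcaataCAGCTGgctccatctgt
Kif5c, chr2:49741976-49742003, plus: cgcaccaaaagCAGCTGtccagacttcg

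The last sites hold the run AGGGGGC from the motif of CTCF, a factor that anchors chromatin loops, in opened peaks of the coding sequence of Itgb7 and the 3' UTR of Tead4.
Itgb7, chr15:102224592-102224619, minus: agatcgcggcgAGGGGGCcacccagctg
Tead4, chr6:128227730-128227757, minus: agtggccctgcAGGGGGCagggtctcca

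The labels of the sorted cells were set beside promoter peaks, within 1 kb of a start site, because few marker genes had an exon peak. The marker lists were chosen with earlier results of these data known, so they give no independent check. Over all 21911 protein-coding gene names, 28.6% had an opened and 8.64% a closed promoter peak. Of 54 NE and neuronal genes, 38 had a closed promoter peak and 4 had an opened one. Of 29 genes of non-NE lung epithelium, 25 had an opened promoter peak, Hes1 and Scgb1a1 among them, and 0 had a closed one. Of 12 leukocyte markers, which the sort should leave out, 2 (Cd14 and Cd68) had an opened promoter peak and 0 a closed one. Of 10 endothelial markers 1 was opened and 2 were closed, and of 10 fibroblast markers 2 were opened and 1 was closed. Pdpn, 1 of the 2 opened fibroblast markers, is also in the list of non-NE epithelium. Whether cells of these types took part in any exon peak was not tested.

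Coding sequence was not poor in listed peaks. Away from start sites it spans 29.9 Mb of the genome and held 38 listed peaks per Mb, close to the 36.5 per Mb of introns and above the 18.9 per Mb of intergenic DNA. The 3' UTRs span 30.5 Mb and held 33.9 peaks per Mb. The small territory of 5' UTRs away from start sites, 0.705 Mb, held 65.3 per Mb. Relative to the 26.6 peaks per Mb of the whole genome away from start sites, the density was 1.43 times as high in coding sequence, 1.27 times in 3' UTRs, 1.37 times in introns and 0.711 times in intergenic DNA. The 2 lists divided differently between the exon classes. Coding sequence held 16.8 opened and 21.2 closed peaks per Mb, while 3' UTRs held 20.3 opened and 13.6 closed.

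**Figure D1:**
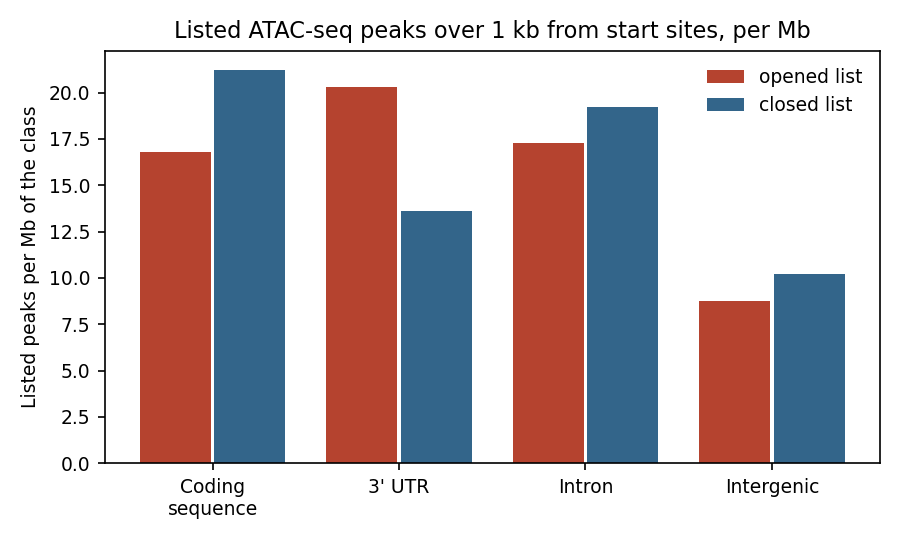
Listed ATAC-seq peaks over 1 kb from start sites per Mb of each class (y axis), for opened and closed peaks (bars, no error bars because each is a count over the whole class). Closed peaks are denser than opened ones in coding sequence (21.2 against 16.8 per Mb), and opened ones are denser in 3' UTRs (20.3 against 13.6 per Mb).

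The direction of the change differed between the classes of exon. In coding sequence 501 of 1134 peaks were opened, a share of 44.2% (41.3 to 47.1). In 3' UTRs 619 of 1033 were opened, a share of 59.9% (56.9 to 62.9), and the intervals of the 2 classes did not overlap. The share was 50.8% over all listed peaks and 47.1% over listed peaks away from start sites, so that coding sequence lay below both values and 3' UTRs above both. Intron and intergenic peaks together were opened in 46.9% (46.5 to 47.3), a value inside the interval of coding sequence. In 5' UTRs 28 of 46 peaks were opened, a share of 60.9% whose interval of 46.5 to 73.6 takes in all of these backgrounds.

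Distance from the nearest start site moved with the opened share of 3' UTR peaks. The share was 73.6% of 129 peaks at 1000 to 3000 bp, 63.4% of 361 at 3000 to 10000 bp, 56.8% of 370 at 10000 to 30000 bp and 49.1% of 173 beyond that. Intron peaks went down along the same bins, from 56.3% to 52.4%, 48.5% and 38.8%, and 3' UTR peaks lay above them in each bin. In coding sequence the same bins gave 44.3% of 194, 48.6% of 368, 41.8% of 376 and 40.3% of 196 peaks, and their intervals overlapped one another. Within 500 bp of a start site, where peaks are not exon peaks by the rule, coding sequence had an opened share of 76.2% of 774 peaks, and at 500 to 1000 bp it had 41.7% of 180.

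**Figure D2:**
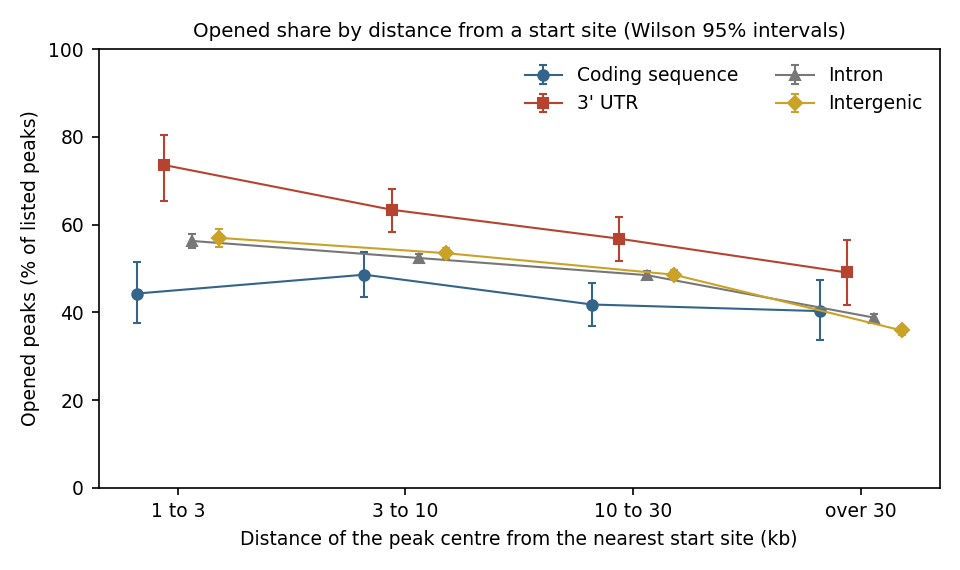
Opened peaks as a percentage of listed peaks (y axis) by the distance of the peak centre from the nearest start site in kb (x axis), for coding sequence, 3' UTR, intron and intergenic peaks, with Wilson 95% intervals as bars. The 3' UTR points fall from 73.6% to 49.1%, and the coding-sequence points stay between 40.3% and 48.6%.

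The levels of exon peaks resembled those of intron peaks. The median of the mean normalized count was 37.7 for opened coding-sequence peaks (interquartile range 16.8 to 75) and 26.9 for closed ones (15.4 to 51.1). It was 29.0 for opened 3' UTR peaks (15.2 to 62.8) and 25.3 for closed ones (15.7 to 45.0), beside 31.4 and 25.3 in introns and 40.7 and 25.8 over all listed peaks. The opened share was largest among the strongest peaks of each class. It was 60.0% of 135 coding-sequence peaks with a mean count of at least 100 and 40.5% of 388 below 20, and in 3' UTRs it was 73.1% of 130 and 59.3% respectively. The rise was not steady in exons. From 20 to 50 the share was 37.4% in coding sequence and 52.5% in 3' UTRs, below that under 20 with overlapping intervals. Introns went from 43.3% to 62%.

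**Figure D3:**
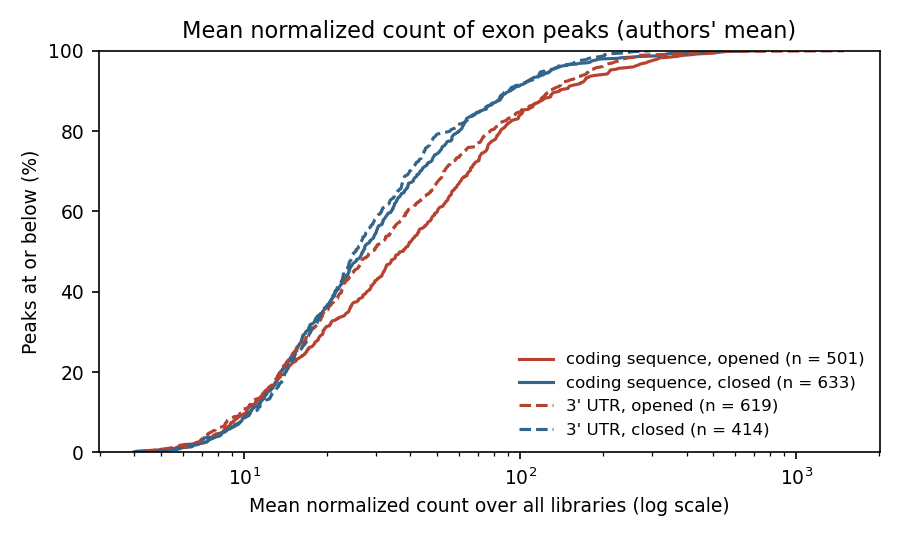
Cumulative percentage of exon peaks (y axis) against the authors' mean normalized count over all libraries (x axis, log scale), for opened and closed peaks in coding sequence and in 3' UTRs. The curve of opened coding-sequence peaks lies to the right of the others at its median of 37.7, and the closed classes have medians of 26.9 and 25.3.

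Coding exons are short, and most peaks centred in one reached beyond it. Opened coding-sequence peaks had a median width of 277 bp and closed ones of 246 bp. The median exon that held a centre was 212 bp long, and the median peak had 71.4% of its bases in exons. Of the 1134 peaks, 347 (30.6%) lay wholly inside 1 exon. The exons that held them were much like coding sequence as a whole, in which the exon around a base had a median length of 191 bp. Exons of at least 1000 bp held 26.0% of the peaks and 23.3% of the coding bases away from start sites, and last exons held 22.3% of the peaks and 19.1% of the bases. Along the coding sequence from its start to its end, 4 equal parts held 19.8%, 24.3%, 25% and 30.9% of the peaks, against 19.6%, 25.8%, 27.2% and 27.4% of the bases.

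The 3' UTR peaks lay mostly inside 1 long exon. The exons that held them had a median length of 2837 bp, 923 of the 1033 peaks (89.4%) were wholly inside, and 97.4% were in the last exon of the transcript. Within 1 kb of the transcript end lay 554 peaks (53.6%), beside 50.6% of the 3' UTR bases. By this measure peaks lay near the transcript end about as often as the bases did. Along the 3' UTR from its start to its end, 4 equal parts held 21.1%, 24.3%, 25.7% and 28.9% of the peaks. The bases were not counted by part in 3' UTRs. Exon peaks were richer in G and C than their class of sequence as a whole. The median GC content was 56.1% in opened and 55.4% in closed coding-sequence peaks against 51.1% over coding sequence. In 3' UTRs it was 51.3% in opened and 50.5% in closed peaks against 42.7% over 3' UTRs. The same was true of introns, at 49.5% and 48.5% against 42.2%.

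Neighbouring peaks were mostly in the same list, as they were over all listed peaks. Another listed peak lay within 1 kb of 362 coding-sequence peaks (31.9%), and for 347 of these (95.9%) it was in the same list. In 3' UTRs the numbers were 299 (28.9%) and 284 (95%). Over all listed peaks, 30.9% had such a neighbour and 93.9% of these were in the same list, and over intron peaks the shares were 29% and 92.3%. Exons with at least 2 exon peaks numbered 169, and in 156 of them the peaks were all in 1 list. The other 13 exons had peaks in both lists. One was the last exon of Klf6, an immediate-early zinc finger factor, whose 3' UTR held a closed peak with a mean normalized count of 91.5 and an opened peak with 51.8. Another was the last exon of Foxo1, a forkhead factor inhibited by insulin signaling, with an opened 3' UTR peak at 21.4 and a closed one at 18.4. In the last exon of Lrp6, a Wnt co-receptor, a closed coding-sequence peak at 71.1 stood before an opened 3' UTR peak at 8.52. Foxo1 and Lrp6 were picked from the 13 after their values were seen.

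Opened and closed exon peaks differed in their sequence. The cores were searched on both strands of the 200 bp around the centre of each peak, which reach beyond the edges of a narrower peak. The share of peaks with a core is given beside the share over all listed peaks of the same list. It is also given beside the share over all 200-bp windows centred in the same exon class away from start sites. The TEAD core CATTCC was present in 14.6% (11.8 to 17.9) of opened and 5.37% (3.87 to 7.41) of closed coding-sequence peaks. In 3' UTRs it was in 19.2% (16.3 to 22.5) of opened and 7.97% (5.73 to 11) of closed peaks. All listed peaks had 18.2% and 8.77%, and the windows had 10.3% in coding sequence and 10.8% in 3' UTRs. The opened exon peaks were thus above and the closed coding-sequence peaks below the level of their exon class. RUNX cores (TGTGGTT), bound by factors of many epithelia and blood cells, were divided in the same direction, with 6.79% (4.90 to 9.33) against 2.21% (1.32 to 3.68) in coding sequence and 7.75% (5.90 to 10.1) against 2.90% (1.67 to 5) in 3' UTRs, beside 8.34% and 3.59% of all listed opened and closed peaks and 3.48% and 4.62% of the windows of the 2 exon classes. NFI cores (TTGGCA) were in 18.2% of opened and 12.2% of closed coding-sequence peaks and in 20.4% and 13.5% of 3' UTR peaks, beside 18% and 13.4% of all listed peaks and 12.4% and 10.8% of the windows.

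Closed exon peaks had more AP-1 and E-box cores. TGANTCA, the AP-1 core, was in 14.7% (12.1 to 17.7) of closed and 7.58% (5.58 to 10.2) of opened coding-sequence peaks, and in 22.9% (19.2 to 27.2) of closed and 9.21% (7.18 to 11.7) of opened 3' UTR peaks. All listed peaks had it in 26.4% of closed and 10.6% of opened ones, and the windows of coding sequence and 3' UTRs in 4.64% and 5.61%. The interval of closed coding-sequence peaks lay below the 26.4% of all listed closed peaks and above the 4.64% of its windows. CAGCTG was in 29.4% (26.0 to 33.0) of closed and 20.2% (16.9 to 23.9) of opened coding-sequence peaks, and in 22.5% (18.7 to 26.7) and 13.9% (11.4 to 16.8) of 3' UTR peaks, beside 22.6% and 12% of all listed closed and opened peaks. This core was frequent in coding sequence as such, with 15.4% of its windows against 9.13% of those of 3' UTRs, and opened coding-sequence peaks lay above both their windows and all listed opened peaks. FOX cores (TGTTTAC) were in 7.42% (5.63 to 9.73) of closed and 3.19% (1.98 to 5.12) of opened coding-sequence peaks, and in 13.3% (10.4 to 16.9) and 8.24% (6.32 to 10.7) of 3' UTR peaks, beside 9.71% and 6.84% of all listed peaks and 2.05% and 3.68% of the windows. The FOX intervals of opened and closed peaks overlapped in 3' UTRs, and in both classes when the whole peak was searched.

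**Figure D4:**
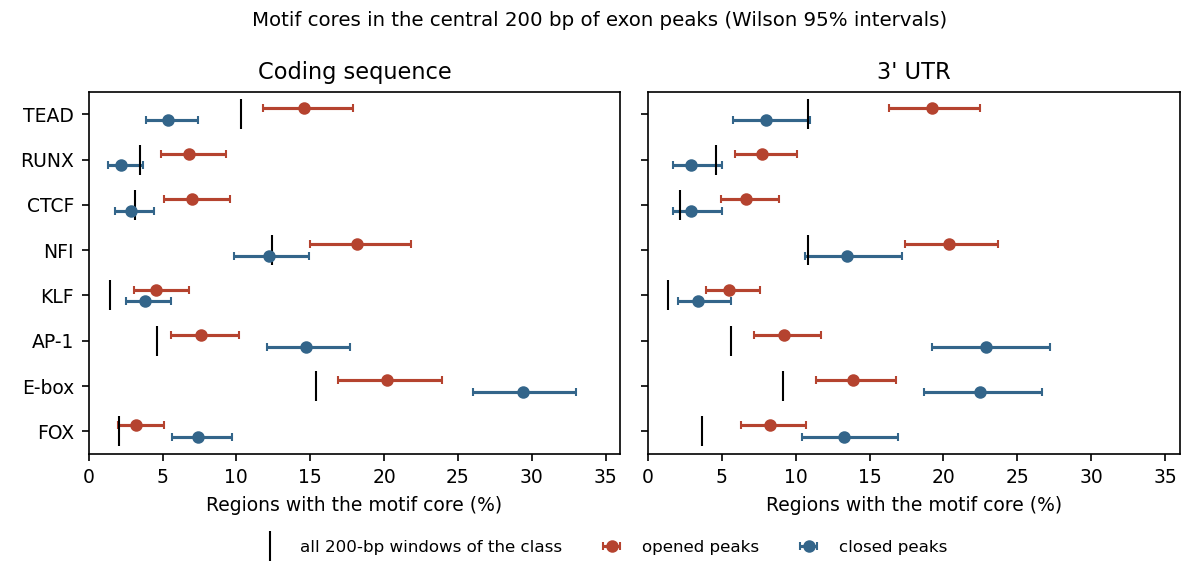
Percentage of regions with each motif core (x axis) in the 200 bp around the centre of opened and closed exon peaks (points, Wilson 95% intervals), for coding sequence on the left and 3' UTR on the right, with all 200-bp windows of the class as black ticks. TEAD and RUNX cores are more frequent in opened peaks (TEAD 14.6% against 5.37% in coding sequence), and AP-1 and E-box cores in closed ones (AP-1 22.9% against 9.21% in 3' UTRs).

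The CTCF run AGGGGGC was more frequent in opened exon peaks than in opened intron and intergenic peaks. It was in 6.99% (5.07 to 9.56) of opened coding-sequence peaks and 6.62% (4.92 to 8.86) of opened 3' UTR peaks, against 3.47% (3.27 to 3.68) of opened intron and intergenic peaks, 5.23% of all listed opened peaks and 3.13% and 2.15% of the windows of the 2 exon classes. Closed exon peaks had 2.84% and 2.90%, beside 2.55% of all listed closed peaks, and the intervals of opened and closed peaks overlapped in 3' UTRs. The GC content of exon peaks was higher than that of intron peaks, as given above, and its part in this difference was not tested. KLF cores (GGGTGTGG) were in 4.59% of opened and 3.79% of closed coding-sequence peaks and in 5.49% and 3.38% of 3' UTR peaks, beside 3.69% and 2.33% of all listed peaks and 1.43% and 1.33% of the windows. RBPJ cores (GTGGGAA), bound by the DNA-binding subunit of the Notch transcription complex, were in 3.79% and 3.48% of opened and closed coding-sequence peaks and in 6.95% and 3.86% of 3' UTR peaks, beside 5.74% and 4.01% of all listed peaks and 4.52% and 3.95% of the windows. NKX2 cores (CACTTGA) were in 4.39% and 3.63% of opened and closed coding-sequence peaks and in 6.14% and 6.28% of 3' UTR peaks, beside 6.68% and 5.04% of all listed peaks and 2.62% and 3.12% of the windows. For KLF, RBPJ and NKX2 the intervals of opened and closed exon peaks overlapped in both classes. The cores of GRHL (AACCGGTT) and REST (TTCAGCACC) were too rare to compare, with 3 and 6 of the 1134 coding-sequence peaks and 3 and 5 of the 1033 3' UTR peaks, beside 0.209% and 0.325% of all listed peaks. A core can overlap the core of another family, and a match is a run of letters and not a bound site.

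Exon peaks were set beside the promoter of the gene whose exon held them. Among genes whose listed promoter peaks were all in 1 list, 220 of 269 opened coding-sequence peaks (81.8%, 76.7 to 85.9) and 286 of 329 opened 3' UTR peaks (86.9%, 82.9 to 90.2) had an opened promoter, close to the 85.7% of opened intron peaks. Closed exon peaks had a lower share in the list of their promoter, and closed promoters were also the rarer kind. A closed promoter stood with 157 of 294 closed coding-sequence peaks (53.4%, 47.7 to 59) and with 66 of 177 closed 3' UTR peaks (37.3%, 30.5 to 44.6), while it stood with 61.6% (60.6 to 62.6) of 9120 closed intron peaks. The interval of each exon class lay below that of introns. Of all listed promoter peaks 70.4% were opened, so the shares of opened and closed peaks have unlike bases. They cannot be compared directly, and which list followed its promoters more closely was not tested. A listed promoter peak was present for the genes of 56.5% of opened and 48.3% of closed coding-sequence peaks, and of 55.4% and 44.7% of 3' UTR peaks.

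**Figure D5:**
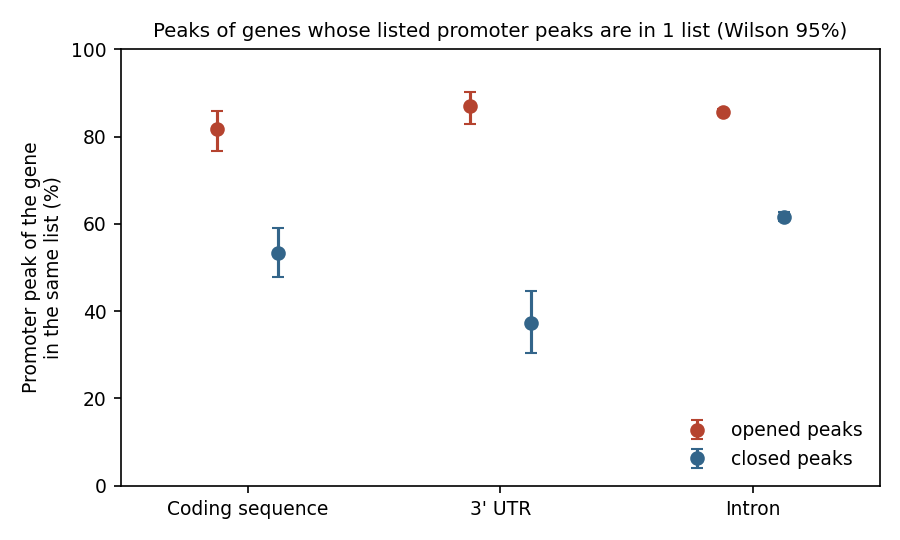
Percentage of opened and closed peaks whose gene has its listed promoter peaks in the same list (y axis), for coding sequence, 3' UTR and introns (x axis), among genes with listed promoter peaks in 1 list (points, Wilson 95% intervals). Opened peaks lie between 81.8% and 86.9%, and closed 3' UTR peaks are lowest at 37.3%.

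The strongest opened coding-sequence peak lay in the last exon of Cacna1a, which codes for the pore of a neuronal P/Q-type calcium channel (chr8:84638722-84639755, exon 47 of 47), with a mean normalized count of 621. The gene itself had a closed promoter peak. Next came Kank3, a cytoskeletal adaptor (exon 3 of 11, mean normalized count 557), Prr36 (exon 6 of 7, 522, closed promoter), Pura, which codes for a nucleic acid-binding protein (exon 2 of 2, 500, opened promoter), and the zinc finger gene Zfp771 (exon 3 of 3, 437, opened promoter). Promoters of the 5 genes thus went both ways, with 2 opened, 2 closed and 1 without a listed peak.

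The strongest closed coding-sequence peak covered most of the last exon of Lor, which codes for the epidermal envelope protein loricrin (chr3:92080500-92081971), with a mean normalized count of 750 and a GC content of 72.8%. It was followed by Soga3 (exon 2 of 7, mean normalized count 517, closed promoter), Tle1 (exon 17 of 20, 484), Msl3l2 (exon 2 of 2, 458) and B3gat2, a glucuronyltransferase gene (exon 1 of 4, 355, closed promoter). The Tle1 peak was 658 bp wide and had 22.5% of its bases in the exon, so that it was largely intronic. The peak at the same exon of Tle4 had a mean normalized count of 12.1. Whether reads from the near-identical Tle1 exon took part in this count was not tested.

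Among opened 3' UTR peaks, that of Lars2, the mitochondrial leucyl-tRNA synthetase gene, stood apart (chr9:123461771-123462216), with a mean normalized count of 1491 against at most 513 in any other. Of its 17 consecutive runs of 25 bases, 10 also occurred elsewhere on the assembled chromosomes, beside at most 2 runs in the other 19 of the 20 peaks made up of the 5 strongest of coding sequence and of 3' UTRs in each list, so its reads could be shared with other loci and its level is uncertain. The next were A530084C06Rik, a 1-exon gene beside an opened promoter (513), Amotl1, which codes for an angiomotin family protein that binds YAP (chr9:14544130-14544933, mean normalized count 433), Rassf4, a Ras association domain gene (432), and Ccdc92b (413), whose promoter was closed. The strongest closed 3' UTR peaks were lower. They lay in Scn9a, a sodium channel gene known from sensory neurons (chr2:66482068-66482715, mean normalized count 296, closed promoter), Arhgef10 (254), Hjurp, the chaperone of the centromeric histone (244, closed promoter), Ccdc178 (214) and Ccdc97 (202).

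Exon peaks were spread over 1844 genes, 8.42% of 21911 protein-coding gene names. Of these genes 1540 had 1 exon peak, 249 had 2, 46 had 3 and 9 had at least 4. Opened exon peaks alone were found in 907 genes, closed ones alone in 872 and both in 65. Among the 304 genes with at least 2 exon peaks, 239 had all of them in 1 list.

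The gene with most exon peaks was Syne1, which codes for the giant nuclear envelope protein nesprin-1. It held 5 coding-sequence peaks over exons 47 to 131 of 146, all closed, with mean normalized counts of 133, 26.5, 34.3, 95.5 and 11.2, and its promoter was closed too. Bmp2k, a kinase gene, had 4 opened peaks in its last exon (12.9 in coding sequence, then 7.89, 20.1 and 11.8 in the 3' UTR) although its promoter was closed. Gpr179, an orphan receptor gene on chromosome 11, had 4 opened peaks in its last exon, 3 in coding sequence (15.4, 22.4 and 33.5) and 1 in the 3' UTR (26.7). Ttc28 had 4 opened peaks, at 5.78 in exon 5 and at 13.2, 18.9 and 13.5 in the 3' UTR.

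In the other genes with 4 exon peaks the peaks went both ways. Amotl1 had opened 3' UTR peaks at 433 and 28.7 and closed peaks at 59.6 and 12.9 over coding exons of another transcript. Mrtfb, a co-activator of serum response factor, had a closed coding-sequence peak at 84.1 and 3 opened 3' UTR peaks at 12.2, 60.6 and 78.5. Ptprt, a receptor phosphatase gene, had the same arrangement, with a closed coding-sequence peak at 13.8 and opened 3' UTR peaks at 8.46, 23.2 and 32, and both Mrtfb and Ptprt had a closed promoter. Lrp5, a Wnt co-receptor gene with an opened promoter, had an opened coding-sequence peak at 89.8 and closed peaks at 19.7, 26.7 and 80.8. C9orf72 had 2 opened peaks in its last exon, at 12.7 and 8.61, and 2 closed peaks upstream, at 16.2 and 14.3.

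The counts of the gene lists are small, and each is read against the opened share of 51.9% over all exon peaks, the 8.42% of all protein-coding genes with an exon peak, and the 40.4 peaks per Mb of exon over all these genes. Of 54 NE and neuronal genes 9 (16.7%) had an exon peak, a density of 46.3 per Mb, with 5 opened and 6 closed peaks. The closed ones included Insm1, a zinc finger factor of NE cells (coding sequence, mean normalized count 37.1), Shank1 (31.0), Kif5c (19.8) and the 3' UTR of Nova2 (17.7). The opened ones were in Cacna1a (621), the 3' UTR of Kif5c (45.6), Stmn3 (23.3) and Cacna1b (22.8), and each of these genes had a closed promoter. Of 29 genes in the list of non-NE epithelium, Epcam, an epithelial adhesion gene, had exon peaks, and both were closed (51.9 and 11.8). Epcam had no listed promoter peak, while 25 genes of the list had an opened one. The paper used EpCAM as a positive marker when sorting lungs of Chga-GFP mice, NE cells included. Epcam is therefore not particular to non-NE cells. Among leukocyte, endothelial and fibroblast markers there were 3 exon peaks, closed in Lyz2 (6.75) and Vwf (57.4) and opened in Erg (32.6), and the fibroblast list had 0.

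Of 39 Hippo and YAP genes 9 (23.1%) had an exon peak, at 60.7 peaks per Mb, 6 opened and 6 closed. An opened promoter peak was present in 20 of the 39 and a closed one in 3, and over all protein-coding genes the shares were 28.6% and 8.64%. Beside Amotl1, opened peaks lay in Arhgef17 (coding sequence, 91.7) and in the 3' UTR of Tead4, a TEAD factor (14.7). Closed ones lay in the 3' UTR of Wwc1, the upstream regulator KIBRA (150), in the 3' UTR of Wwtr1, which codes for TAZ (17.1), and in Stk4, the kinase MST1 (28.4). Of 39 Notch genes 7 (17.9%) had an exon peak, at 60.1 per Mb, with 5 opened and 4 closed peaks, and 16 opened and 3 closed promoters. Opened peaks lay in the 3' UTRs of Rbpj (58.3 and 12.3 among its 3 peaks) and the receptor gene Notch1 (38.6), and in coding sequence of Notch3 (13.2). Closed ones lay in the ligand genes Dll1 (13.4) and Dner (11.9) and in Tle1 and Tle4. The 5 of 9 opened peaks are near the share over all exon peaks.

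Collagen, laminin and integrin genes had 23 exon peaks in 18 of 86 genes (20.9%), at 50.2 per Mb, 7 opened and 16 closed. Of the 86 genes 24 had an opened and 16 a closed promoter peak. The opened ones included the 3' UTR of Itga10 (375) and coding sequence of Itgb4, the hemidesmosome integrin (226) and Itgb7 (54.3). The closed ones included 3 peaks of Itgbl1 (62.3, 122 and 82.8) and 1 of Lamb1 (77.8). KLF and SP genes had 7 exon peaks in 5 of 26 genes (19.2%), 5 opened and 2 closed, at 82.8 per Mb, the highest density of these lists. They included opened coding-sequence peaks in Klf1, the erythroid factor (370), Klf4 (137) and Sp6 (61.2), and a closed one in Sp4 (13.6). Chromatin regulator genes had 7 opened and 5 closed peaks in 8 of 55 genes (14.5%), at 29.1 per Mb, such as opened peaks in Hdac4 (143 and 39.1) and Rai1 (61.0 and 23.5) and closed ones in Dnmt3a (66.2) and Hcfc1 (59.1). Protocadherins and large cadherins, adhesion genes with long exons, had 6 closed and 0 opened peaks in 4 of 77 genes (5.19%), such as Pcdh10 (48.0 and 20.7), at 16.7 peaks per Mb of exon. Zinc finger genes of the C2H2 kind had 27 opened and 24 closed peaks in 38 of 483 genes (7.87%), at 31.9 per Mb. Beside Zfp771, opened peaks lay in the 5' UTR of Zfp503 (360) and the 3' UTR of Zfp516 (178), and the strongest closed one lay in coding sequence of Prdm13 (175). The 39 Hox genes had 0 exon peaks, but their exons span 0.0458 Mb, too little for this count to be read as a result.

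Chromosome 11 had the highest opened share of exon peaks. Of its 185 exon peaks 145 were opened, a share of 78.4% (71.9 to 83.7), with 76.5% of 85 in coding sequence and 79.2% of 96 in 3' UTRs. On the other chromosomes with exon peaks the share ran from 30.0% on X, with 40 peaks, to 66.9% (58.7 to 74.2) on chromosome 5, with 139, whose interval overlapped that of chromosome 11. Listed peaks of chromosome 11 as a whole were opened in 71.1% (69.8 to 72.3) and its intron peaks in 62.6%, so that a high opened share was not limited to its exons. Without chromosome 11 the opened share was 41.6% in coding sequence and 58.0% in 3' UTRs, and the order of the 2 classes stayed the same. The copy number of the chromosomes in these cells was not measured in the files, and its part in these shares was not tested.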

How the data were processed

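ATAC-seq peaks of 8 libraries (16 runs, 8 runs per group) were used as deposited. Per the labels and methods, the authors trimmed the reads, aligned them to mm10 with Bowtie2 2.3.4.1, removed duplicates, called narrow peaks with MACS2 after shifting and extending reads around the Tn5 insertion, made 1 merged peak set and counted every sample's reads over it. DESeq2 1.28.1 is named in the submitters' processing notes. As signal, the authors deposited 1 value per peak, which averages the normalized counts of all libraries. The deposited log2 columns hold the authors' fold changes and standard errors, the score column their test statistic, and the p-value columns their p and adjusted p. These columns hold the authors' own comparison and were not used, except to check that all 40828 opened and 39539 closed rows passed the stated limits (log2 fold change beyond 1 in size, adjusted p under 0.001). Shares are of these listed peaks and say nothing of accessible sites that did not pass.

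Peaks were classed by their centre on the basic GENCODE annotation (release M21, mm10), as within 1 kb of any start site, then coding sequence, 3' UTR, 5' UTR, exon of another transcript, intron or intergenic. Coordinates are 1-based and sequences are from GRCm38. Computations used Python 3.11.15, numpy 2.4.6, pandas 2.3.3, scipy 1.17.1, pysam 0.24.0 and matplotlib 3.10.9, and the classing and the motif search were tested on simulated data. No test was run, because the files hold no value per library and peaks are not replicates. The named peaks are the 5 of highest mean normalized count per class and list, those of genes with at least 4 exon peaks, and up to 4 per gene list and direction. The members and lists (NE and neuronal, non-NE epithelium, leukocyte, endothelium, fibroblast, Hippo and YAP, Notch, chromatin regulators, collagens with laminins and integrins, protocadherins, C2H2 zinc fingers, Hox, KLF and SP) were chosen with earlier results of these data known. The 200-bp windows, the comparison of Tle1 with Tle4 and the search for copies of the 20 peaks that were the 5 strongest per class and list were added after values were seen. The alternatives tried were a distance of 3 kb, a peak with most of its bases in the class, merging of peaks within 100 bp, a mean count of at least 20, 3' UTR before coding sequence, and motifs in the whole peak. Of the peaks that this rule names, 1 is not reported here.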

Additional observations from a re-analysis of the deposited data

How the results depend on the processing

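The opened share of coding-sequence peaks ran from 41.6% to 46.1% and that of 3' UTR peaks from 58.0% to 60.2% over the alternatives run for them, and coding sequence stayed below 3' UTRs. Merging of peaks was run for the number of exon peaks alone. The number of exon peaks ran from 1871 (over 3 kb from start sites) to 2213, and the density at 3 kb was 37.3 per Mb in coding sequence and 35.5 in 3' UTRs. With promoters within 3 kb, the share of opened 3' UTR peaks in the list of their promoter moved from 86.9% to 82.8%, and the shares for opened and closed coding-sequence and closed 3' UTR peaks were 77.9%, 50.2% and 42.9%. Start sites of the comprehensive annotation (1931 peaks) and leaving out chromosome 11 were chosen after seeing the data. Of 24 motif shares, 17 moved by more than their interval when the whole peak was searched, which is a longer sequence in peaks wider than 200 bp. No paired analysis was possible because the files hold no value per library, and for the same reason no replicate could be left out. The depth of the libraries and the spread between mice therefore cannot be given for any value.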
